A study of Mus musculus with 18 samples.

Results

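The 4 Hox clusters were described here from 12 interval lists of H3K27me3, the trimethylation of lysine 27 of histone H3, in the mouse medial ganglionic eminence (MGE), a ventral forebrain region that produces interneurons. The clusters were represented by 38 listed genes, 10 in cluster A, 10 in cluster B, 9 in cluster C and 9 in cluster D, of 20665 autosomal protein-coding genes in the gene table. An interval was counted as a Hox interval where it overlapped the body of a listed gene extended by 2.5 kb on either side, and no measured value entered that choice. The mark was profiled by bulk CUT&Tag, in which an antibody guides a transposase to the mark and the tagged DNA is sequenced. The comparison asked how loss of Ezh2 changed the mark at the embryonic stages E12.5 and E15.5, named by day. Each stage had 3 WT and 3 KO libraries. Of the 18 samples listed, those from heterozygous embryos are not analysed here.

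KO embryos were labelled Nkx2.1-CreC/+;Ezh2;Ai9F/+, and the breeding was given as males homozygous for the Cre allele crossed with Ai9-homozygous females, both parents carrying a floxed Ezh2 allele. By that cross, WT embryos also inherited a Cre allele and the Ai9 reporter. Cre was driven by Nkx2.1, so Ezh2 was deleted only in cells of the Nkx2-1 lineage and other cells of the dissected tissue kept it. At E12.5 the whole MGE was taken. At E15.5 only Tom+ MGE was dissected under fluorescence, so the stages differ in dissection as well as in age, and these cannot be told apart. Embryos of a genotype were combined where applicable, so a library can hold several embryos. The labels call the libraries biological replicates and say nothing more of their independence, and p-values measure the spread between these libraries.

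Hox genes encode homeodomain transcription factors that give body segments their identity along the head to tail axis, and paralogues are numbered by their position in the 4 clusters. In the forebrain they are silent, and Polycomb repressive complexes cover them: the Ezh2 subunit of one complex places H3K27me3, which another complex binds. The clusters also hold microRNAs of the miR-10 and miR-196 families, several of which repress Hox transcripts.

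All 6 microRNA genes of the clusters lay inside Hox intervals in 12 of 12 libraries. Their mature sequences are shown because the same seeds recur in separate Hox domains. They were taken from the RefSeq table (GRCm38.p6), are written 5′ to 3′, and have the seed, bases 2 to 8, in capitals.
miR-10a-5p, cluster B: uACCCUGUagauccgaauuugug
miR-10b-5p, cluster D: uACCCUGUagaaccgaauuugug
miR-196a-5p, clusters B and C: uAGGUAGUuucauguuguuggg
miR-196b-5p, cluster A: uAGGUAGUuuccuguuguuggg
miR-615-3p, cluster C: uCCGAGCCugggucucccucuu
The miR-10 pair shared the seed ACCCUGU between clusters B and D. The miR-196 genes shared the seed AGGUAGU between clusters A, B and C, with 2 of the 3 loci giving the same mature sequence. The seed of miR-615-3p, CCGAGCC, was shared with none of the others. Mir10a lay at chr11:96317165-96317274, inside Hoxb3 as the table bounds that gene, and Mir10b lay at chr2:74726070-74726137, inside Hoxd3 and Hoxd4. Mir196b was at chr6:52230081-52230165, Mir196a-1 at chr11:96265164-96265265, Mir196a-2 at chr15:102973350-102973434 and Mir615 at chr15:103014910-103015001, all in GRCm38.

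Promoter windows, 250 bases before to 50 after a start, were in the RefSeq table for 22 of the 38 genes, or 57.9%. A comparison of base composition over the set is void at that coverage, since fewer than 80% have a value, and only single windows are shown. Hoxa13 and Hoxd13 stand for the outer ends of clusters A and D, where the domains ran far past the genes, and Hoxd1 for the end of cluster D where the domain stopped. CG dinucleotides are in capitals, since Polycomb domains are known to form over unmethylated CG-rich DNA.
Hoxa13, chr6:52260831-52261130, minus strand: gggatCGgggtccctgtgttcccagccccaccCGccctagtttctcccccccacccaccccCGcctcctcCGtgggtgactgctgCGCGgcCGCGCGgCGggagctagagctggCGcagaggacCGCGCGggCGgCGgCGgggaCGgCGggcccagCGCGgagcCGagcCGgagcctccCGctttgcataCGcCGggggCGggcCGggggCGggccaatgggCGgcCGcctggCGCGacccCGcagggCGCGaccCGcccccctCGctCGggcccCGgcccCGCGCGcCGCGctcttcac
Hoxd13, chr2:74667975-74668274, plus strand: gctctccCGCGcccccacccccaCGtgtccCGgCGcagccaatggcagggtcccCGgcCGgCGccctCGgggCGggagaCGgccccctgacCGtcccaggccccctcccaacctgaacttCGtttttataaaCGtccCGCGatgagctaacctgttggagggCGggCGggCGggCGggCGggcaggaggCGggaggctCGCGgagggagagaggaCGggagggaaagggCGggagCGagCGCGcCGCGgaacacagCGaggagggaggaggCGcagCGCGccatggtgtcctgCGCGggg
Hoxd1, chr2:74762730-74763029, plus strand: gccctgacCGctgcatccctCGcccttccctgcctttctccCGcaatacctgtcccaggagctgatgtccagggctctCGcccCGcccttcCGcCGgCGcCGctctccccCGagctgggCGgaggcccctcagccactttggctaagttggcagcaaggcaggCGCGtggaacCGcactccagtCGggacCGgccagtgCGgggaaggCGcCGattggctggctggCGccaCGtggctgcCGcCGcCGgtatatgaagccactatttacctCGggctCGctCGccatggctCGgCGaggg
The windows held 45 CG in Hoxa13, 37 in Hoxd13 and 29 in Hoxd1, against a median of 7 over 31396 autosomal windows of the table. These 3 were chosen for their place in the clusters and are also the most CG-rich of the 24 Hox windows in the table, Hoxa5 holding 29 as well. Hoxa9, Hoxd4 and 1 of the windows of Hoxd11 held 4 CG and Hoxd8 held 6, below the median of all windows. All 3 windows lay inside intervals in every library. The Hoxd1 window stood at the 86.7th percentile of CG number, at the gene where the domain of cluster D ended. The motif TGATTNAT, a Pbx and Hox composite site, was searched on both strands and lay in 2 of 24 Hox windows, those of Hoxa2 and Hoxd11, and in 3.23% of all windows. The motif TTTATG, bound by Cdx factors and some posterior Hox proteins, lay in 5 of 24 Hox windows and in 11.8% of all. These motif numbers rest on the same 57.9% of the genes, with Hoxc4 alone from cluster C. No comparison of the set with all windows is drawn from them.

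The lists held between 4575 and 10730 autosomal intervals per library, with summed counts of 570378 to 6802137. The deposited count is a whole number per interval, and what it counts is not stated in the labels. Depth is given as the mean count per 200 bp window, recovered from the deposited scores. E12.5 WT replicates 1 to 3 had 0.117, 0.698 and 0.481. The other ranges were 0.212 to 0.272 in E12.5 KO, 0.0751 to 0.150 in E15.5 WT and 0.179 to 0.346 in E15.5 KO, the lowest being E15.5 WT replicate 1. Signal density below is the count per covered 200 bp divided by that depth, a fold over the mean window of the library. Ezh2 itself had no interval, so its deletion could not be checked from these lists. Of the MGE markers, Nkx2-1 had an interval in 12 of 12 libraries, at a median of 58.1-fold, and Lhx6 also in 12, at 99.9-fold. The pallial genes Emx1 and Tbr1 had intervals in 12 libraries, at 135-fold and 119-fold. Of other pallial, endothelial and microglial markers, Cldn5 had an interval in 12 libraries and Neurod6 in 6, and Pecam1, Cx3cr1 and Aif1 had none. Actb, Gapdh, Tbp, Hprt and Polr2a, which every cell uses, had none in any library. A list of H3K27me3 in mixed cells gives no measure of how many cells carry the mark, so fewer marked cells and less mark per cell cannot be told apart in any result below.

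All 38 genes had an interval in each of the 12 libraries, against 12.1% of 20665 autosomal genes. The whole body and 2.5 kb on either side lay inside intervals in all 12 libraries for 37 of the 38, against 0.755% of all genes. The exception was Hoxd1, the outermost gene of cluster D, which was fully covered in 1 of 12 libraries and at least 71.5% covered in the others. In 12 of 12 libraries the 4 longest autosomal intervals were those of the 4 clusters, and so were the 4 with the highest counts. The lowest of those 4 counts was 2.11 to 2.58 times the next highest, which was the interval of Pax3, a neural crest and dorsal neural tube regulator, on chromosome 1. In length the margin was smaller: the shortest of the 4 was 112.2 to 133.4 kb, and the longest other interval 88.8 to 125.2 kb. That other interval was at Pax3 in 10 libraries and at Nfix on chromosome 8 in E12.5 WT replicates 2 and 3, the deepest libraries. A summed count grows with length, so the 2 rankings are not separate. By count per kb, other intervals often ranked higher. Cluster A ranked 1 of 4933 in E12.5 WT replicate 1 and 18 of 8997 in E15.5 KO replicate 3. In the latter, Hoxb9 to Hoxb1 ranked 67. Hoxb13 ranked 164 of 10730 in E12.5 WT replicate 2.

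Together the Hox intervals took 9.0% ± 1.6 (SD, n = 12) of the autosomal count in 1.83% ± 0.41 (SD, n = 12) of the covered bases. The share of the count was lowest, 7.21%, in the deepest library, E12.5 WT replicate 2, and highest, 12.1%, in E12.5 KO replicate 1. Covered length was greatest in that deepest library, at 844.4 kb over the 4 clusters, and smallest in the shallowest, at 570.8 kb, and the part of depth in the values below was not tested except where stated. Their density was 222 ± 42 fold over the mean window (SD, n = 12). The median over the 38 genes was 211-fold, against 21.0-fold over the 2492 genes with an interval in every library. The lists give a single count per interval, so genes in the same interval share a value and are not separate measurements. The 10 genes of cluster A stood at a median of 250-fold over the libraries, Hoxb1 to Hoxb9 at 208, the 9 genes of cluster C at 208, those of cluster D other than Hoxd1 at 217, Hoxd1 at 213 and Hoxb13 at 154.

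**Figure D1:**
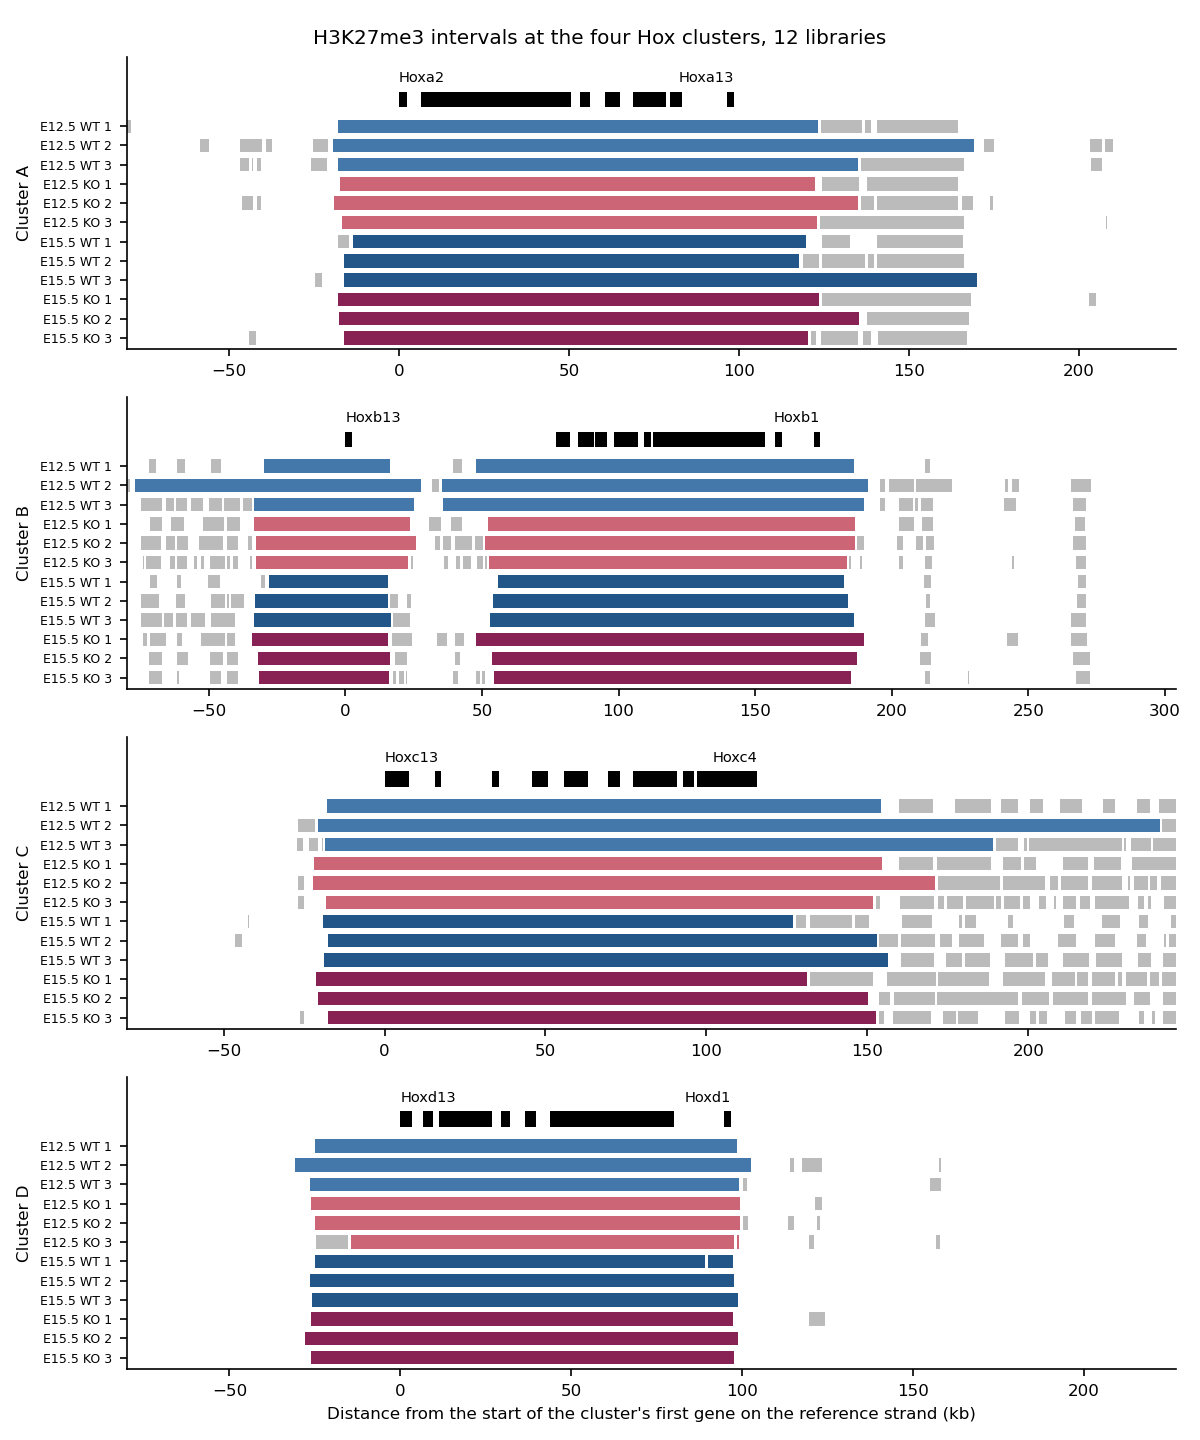
Intervals around each cluster in the 12 libraries (blue, WT; red and purple, KO), by distance in kb from the start of the cluster's first gene on the reference strand; black bars are the listed genes as the gene table bounds them, and grey bars are intervals that overlap no listed gene. Clusters A and C each lie in 1 interval in all 12 libraries, cluster B is always split between Hoxb13 and Hoxb9, and the end past Hoxd1 stays within 5.2 kb.

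The domain of cluster A ran over Hoxa2 to Hoxa13, a 98.5 kb stretch on chromosome 6, with no break between these genes in any library. On the Hoxa2 side its border lay 13.6 to 19.4 kb beyond the gene, within a range of 5.8 kb over the 12 libraries. Hoxa2, which patterns the hindbrain and second pharyngeal arch, was thus inside the domain in all of them. Past Hoxa13, which patterns distal limb and genitourinary tissue, the border moved over 52.2 kb. In 7 of 12 libraries the interval ended 15 to 30 kb past Hoxa13, at a gap of 0.8 to 4.6 kb. In 2 WT libraries, replicate 2 of E12.5 and replicate 3 of E15.5, it ran on through Evx1, a homeobox gene next to the cluster, to 70.7 and 71.5 kb past Hoxa13. Evx1 had an interval in all 12 libraries, at a median of 203-fold, so the libraries differed in whether these domains were joined and not in whether Evx1 was covered.

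Cluster D, 96.9 kb from Hoxd13 to Hoxd1 on chromosome 2, had the least variable length, 124 ± 5 kb (SD, n = 12). Its border past Hoxd1, a gene of the anterior end of the series, lay 0.46 to 5.66 kb beyond the gene, and within 2.0 kb over the 11 libraries other than the deepest. The border on the Hoxd13 side, the posterior end, lay 14.4 to 30.8 kb out. It reached into Evx2, the homeobox neighbour of Hoxd13, in all 12 libraries. Breaks occurred in 2 libraries only. In E15.5 WT replicate 1, the shallowest library, a gap of 0.8 kb lay 4.78 kb before Hoxd1 and left this gene in an interval of its own, 7.4 kb long with a count of 266. Hoxd1 had 95.7-fold there, its lowest value. In E12.5 KO replicate 3 a gap of 0.8 kb began 0.86 kb past Hoxd1. Farther out on the Hoxd1 side, Mtx2, which encodes a mitochondrial protein, had an interval in 3 of 12 libraries, at a median of 6.17-fold.

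Cluster C, 116 kb from Hoxc13 to Hoxc4 on chromosome 15, had no break between its genes in any library. Its border beyond Hoxc13, a gene of the posterior end known for hair and nail formation, was held within 4.8 kb. Beyond Hoxc4 the border moved over 114 kb. It lay 11.1 kb past the gene in the shallowest library, E15.5 WT replicate 1, and 125 kb past it in the deepest, E12.5 WT replicate 2. Without the deepest the range was still 62.2 kb. Smug1, a DNA repair gene on this side, had an interval in 12 of 12 libraries, at a median of 51.1-fold, and was joined to the Hoxc interval in E12.5 WT replicate 2.

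Cluster B was the only one that was split in all 12 libraries. Hoxb13, a posterior gene that lies apart from the rest of the cluster, had an interval of its own on chromosome 11, and Hoxb9 to Hoxb1 shared another. The gap between them was 31.8 kb at the median, 7.6 kb in the deepest library and 40.4 kb in the shallowest. A stretch of 7.6 kb, chr11:96222001-96229600 in GRCm38, lay outside both intervals in every library. Where small intervals appeared in the gap, their density was 4.06 to 10.1 fold. The Hoxb13 interval was 43.4 to 104.6 kb long and extended 27.9 to 76.9 kb on the side away from Hoxb9. It came within 2.5 kb of Ttll6, a tubulin polyglutamylase gene, in all 12 libraries. The 76.9 kb were in E12.5 WT replicate 2, and without it this border moved by 6.4 kb. Past Hoxb1, a hindbrain gene, the border of the other interval lay 8.55 to 17.5 kb out. Of 16 neighbouring genes listed around the 4 clusters and found in the table, 7 had an interval in every library and 1, Chn1, had none in any.

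Signal density was highest in cluster A in 12 of 12 libraries. In cluster A it was 342, 209 and 222 fold in E12.5 WT replicates 1 to 3, and 275, 325 and 260 fold in E12.5 KO. At E15.5 it was 302, 275 and 223 fold in WT and 240, 241 and 197 fold in KO. In cluster A, WT and KO overlapped at both stages, and the high value of E12.5 WT replicate 1 was that of the shallowest library of its stage. The KO libraries of the stages did not overlap each other in cluster A, nor in B, C or D. The share of all regions with such a separation is not given here. For Hoxb9 to Hoxb1 at E15.5, WT stood at 200 to 236 fold and KO at 156 to 198 fold, without overlap. Depth separated the genotypes at E15.5 as well, at 0.0751 to 0.150 in WT and 0.179 to 0.346 in KO. Genotype and depth thus cannot be told apart in comparisons within that stage. Cluster D stood at 224 ± 35 fold, cluster C at 214 ± 44 and cluster B at 202 ± 44, against 259 ± 46 in cluster A (SD, n = 12 each). Within libraries, cluster A exceeded B by 0.37 on the log2 scale, C by 0.29 and D by 0.21, each in 12 of 12 libraries (sign-flip permutation over all assignments, 6 pairs, Benjamini-Hochberg p = 0.000977 for each). Cluster B was below D by 0.16 in 11 of 12 libraries (p = 0.0022) and below C by 0.08 in 10 of 12 (p = 0.00293, same permutation test and adjustment). Clusters C and D differed by 0.08, with C lower in 8 of 12 (p = 0.0386, same permutation test). That last call was lost when any of 8 libraries was left out.

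The lower density of cluster B went with its Hoxb13 interval. In a split added after the values were seen, the interval of Hoxb9 to Hoxb1 exceeded that of Hoxb13 by 0.45 on the log2 scale in 12 of 12 libraries (sign-flip permutation p = 0.000488, the smallest this test can give). Without Hoxb13, cluster B did not differ detectably from C (difference of C from B -0.03, permutation p = 0.396) or from D (difference of D from B 0.05, permutation p = 0.115). Cluster A still exceeded it by 0.25 in 12 of 12 libraries.

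**Figure D2:**
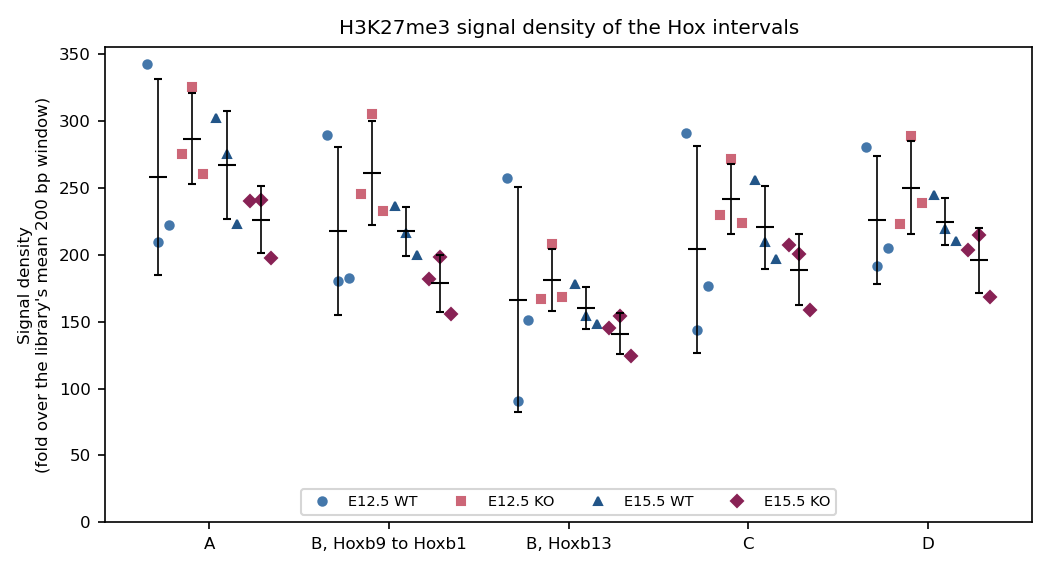
Signal density of the Hox intervals, as fold over the library's mean 200 bp window, for each cluster with cluster B split in its 2 intervals; each point is a library, and horizontal bars with whiskers are the mean and SD of a group (n = 3). Cluster A is the highest and the Hoxb13 interval the lowest of those plotted, and WT and KO overlap at E12.5 in each.

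Between KO and WT, none of the 5 Hox regions was called at either stage or over both. The regions are the merged intervals of Hoxa2 to Hoxa13, Hoxb13, Hoxb9 to Hoxb1, Hoxc13 to Hoxc4 and Hoxd13 to Hoxd1, tested among all autosomal regions called in every library compared (edgeR quasi-likelihood test, Benjamini-Hochberg threshold 0.05). At E12.5, where 10.7% of 3243 regions were called, the Hox changes were 0.07 to 0.12 on the log2 scale, with SE 0.15 to 0.18 and adjusted p from 0.529 to 0.775. Over all regions the median change was -0.56, and 10.4% of them were called lower in KO. At E15.5, where 4.89% of 2781 regions were called, the Hox changes were -0.22 to -0.14 (SE 0.11 to 0.13, adjusted p 0.435 to 0.63), beside a median of -0.02, with 1.73% of all regions called lower. Over both stages, where 6.67% of 2368 were called, they were -0.06 to -0.03 (SE 0.08 to 0.10, adjusted p 0.608 to 0.814), beside a median of -0.29, with 5.87% called lower. At an unadjusted p under 0.05 the edgeR counts were also 0 in these 3 comparisons, against 5 at E12.5, 3 at E15.5 and 0 over both stages with DESeq2, and 0, 1 and 0 with TMM factors. With TMM factors, which move the median of all regions at E12.5 to -0.04, the same changes were 0.59 to 0.64 at E12.5 and changed sign to 0.20 to 0.23 over both stages, and none was called. DESeq2 with its own size factors called none either.

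The difference of the genotype effect between the stages was -0.34 to -0.20 (adjusted p 0.193 to 0.451), with no Hox region called beside 6.67% of 2368, all of which were higher. The median over all regions was 0.61. With TMM factors the 5 values were -0.90 to -0.76 and with DESeq2 -0.97 to -0.83, and again none was called. At an unadjusted p under 0.05 the counts were 0 by the depth-scaled fit, 1 with TMM and 5 with DESeq2. Without E12.5 WT replicate 1, the shallowest library of its stage, 3 of the 5 Hox regions were called lower in this contrast: Hoxb9 to Hoxb1 at -0.53 (edgeR adjusted p = 0.0173), Hoxa2 to Hoxa13 at -0.49 (adjusted p = 0.018) and Hoxc13 to Hoxc4 at -0.42 (adjusted p = 0.0442). Hoxb13 was at -0.33 and Hoxd13 to Hoxd1 at -0.43 without that library, and they did not pass. In that fit 3 of 2411 regions were called lower, and these were the Hox regions, while 422 were called higher.

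By cluster, the density differences of KO from WT over both stages were -0.02 in A, 0.02 in B, 0.04 in C and -0.02 in D (exact permutation within stages, Benjamini-Hochberg p = 0.95 for each). These pool stages of opposite sign. At E12.5 the differences were 0.18, 0.29, 0.30 and 0.16 in A to D, and at E15.5 -0.23, -0.26, -0.22 and -0.20. The change of the difference between the stages was -0.56 to -0.36 (exact permutation, unadjusted p 0.12 to 0.185). Covered length differed by -11.9 kb in A, -10.7 kb in B, -16.6 kb in C and -2.63 kb in D (exact permutation, p = 0.53 for each after adjustment). Within a stage, 3 against 3 libraries cannot give a permutation p below 0.1. The share of the autosomal count in the clusters was 8.32% ± 1.62 in WT and 10.7% ± 1.93 in KO at E12.5, and 9.07% ± 0.48 in WT and 7.96% ± 0.48 in KO at E15.5 (SD, n = 3 each). KO and WT differed by 0.09 on the log2 scale over both stages (exact permutation p = 0.565). The exact permutation p at E15.5 was 0.1, the smallest possible there, for a log2 difference of -0.19. Near single genes, 0 of 38 Hox genes were called between the genotypes (limma on log2 density, beside 0.0803% of 2492 genes). None of the 38 had an unadjusted p under 0.05, and 208 of the 2492 genes had. Hox genes of the same interval share a value, so the 38 are a few measurements only and these numbers are not compared. Breaks inside the clusters were as many in KO as in WT: cluster D was broken in 1 library of each and cluster B had its break in all.

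**Figure D3:**
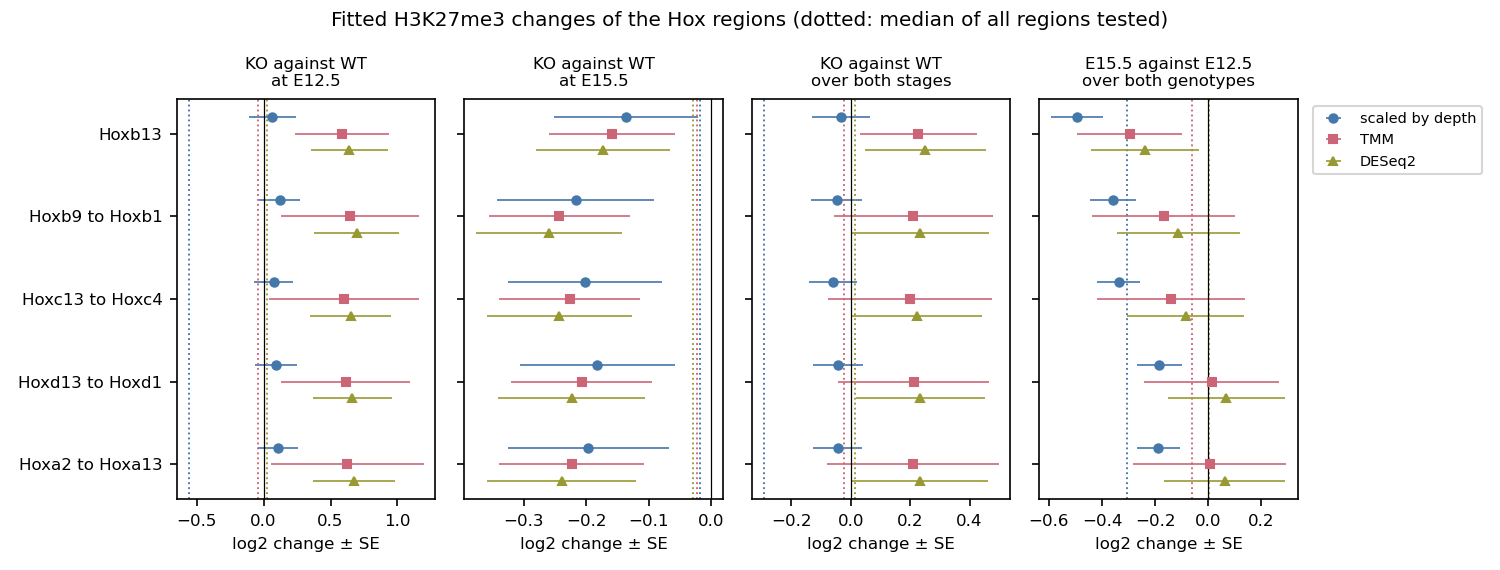
Fitted log2 changes with their SE for the 5 Hox regions under 3 scalings, in 4 comparisons; the dotted lines are the medians over all regions tested under each scaling. At E12.5 and over both stages the changes move with the scaling about as much as the median does, and in the first 3 panels no region is called under any scaling.

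From E12.5 to E15.5, over both genotypes together, 3 of the 5 Hox regions were lower by edgeR with counts scaled by depth. In that fit 36.8% of 2368 regions were called, and 30.1% of the 2368 were called lower. Calls were thus common among all regions as well. Hoxb13 fell by 0.49 on the log2 scale (SE 0.10, edgeR adjusted p = 3.07e-05), Hoxb9 to Hoxb1 by 0.36 (SE 0.09, adjusted p = 0.000598) and Hoxc13 to Hoxc4 by 0.34 (SE 0.08, adjusted p = 0.000562). The changes of Hoxa2 to Hoxa13 and Hoxd13 to Hoxd1 were both -0.19 (adjusted p 0.0613 and 0.0761). The median over all regions was -0.31. With TMM factors, which move that median to -0.06, and with DESeq2 no Hox region was called, and the changes of clusters A and D were slightly positive, 0.01 and 0.01 with TMM. Hoxb13 was still the lowest of the 5, at -0.30 with TMM and -0.24 with DESeq2. Left-out libraries moved the count of edgeR calls between 3 and 5: it was 5 without E12.5 WT replicate 2 or 3, E15.5 WT replicate 1 or E15.5 KO replicate 2. An exact permutation within genotypes on the depth-scaled counts was less firm. Hoxb13 passed (permutation adjusted p = 0.025) whichever library was left out. Hoxb9 to Hoxb1 (permutation adjusted p = 0.0417) was lost without any of 7 libraries. Hoxc13 to Hoxc4 (permutation adjusted p = 0.0375) was lost without any of 5.

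The depth-scaled count of the Hoxb13 region was 11986 to 16461 at E12.5 (median 12670) and 7927 to 10277 at E15.5 (median 10007). All 6 libraries of E15.5 were below all 6 of E12.5, as they were in 8.15% of the 2368 shared regions. For Hoxb9 to Hoxb1 the counts were 36580 to 53833 (median 41304) and 26479 to 38849 (median 34542), and these overlapped. In WT alone this region had 36580 to 52136 at E12.5 and 34631 to 38849 at E15.5, which overlapped. In KO alone it had 39723 to 53833 and 26479 to 34454, which did not. Hoxb13 had 11986 to 15625 and 10037 to 10277 in WT, and 12602 to 16461 and 7927 to 9978 in KO. The 8.15% above is for all 6 against all 6 libraries. The share of all regions that separate within 1 genotype is not given here, so these ranges are not read as particular to a genotype or region. With all 12 libraries, no Hox region was called for a difference of the stage change between the genotypes. The Hoxb13 interval was 43.4 to 50 kb long at E15.5 and 46 to 104.6 kb at E12.5, where E12.5 WT replicate 2 had the 104.6 kb and the other libraries at most 58.8 kb, so that the stages overlapped in length. Its density differed by -0.14 on the log2 scale (exact permutation p = 0.59). Its end toward Hoxb9 lay 13.2 to 14.4 kb past the gene in the 6 libraries of E15.5, which is a spread of a few windows. At E12.5 it lay 20.8 to 25.4 kb past the gene in 5 of 6 libraries and at 14.0 kb in E12.5 WT replicate 1, which has the lowest depth of that stage. The difference was -7.57 kb (exact permutation within genotypes, p = 0.01), a measure added after the lists were seen. The 2 deepest libraries were E12.5 WT replicates 2 and 3. Without both, the difference was -4.2 kb and no longer passed (exact permutation p = 0.05), with E12.5 WT then represented by replicate 1 alone, the library with the short border. The part of depth in the border difference was not tested apart from this.

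**Figure D4:**
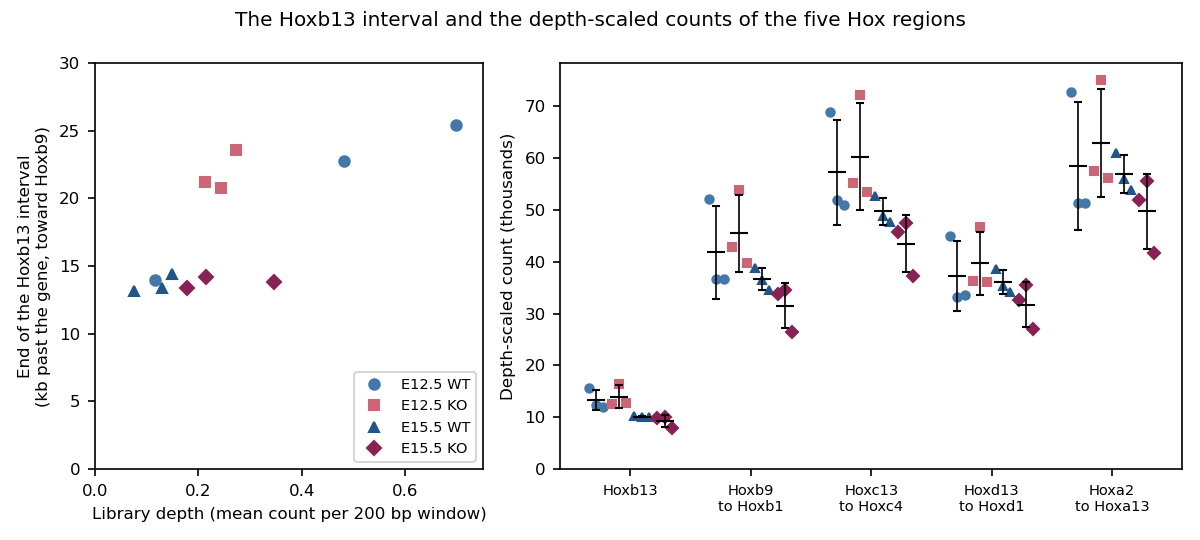
Left, distance in kb from Hoxb13 to the end of its interval on the Hoxb9 side, against library depth; right, depth-scaled counts of the 5 Hox regions in the units given on the axis, with the mean and SD of each group (n = 3). The 6 libraries of E15.5 lie between 13.2 and 14.4 kb, and in the Hoxb13 region all of them are below those of E12.5.

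In the lists as called, the shares of the clusters in their summed count differed between the stages. Of the summed count of the 4 clusters, a measure that needs no scaling between libraries and was added after the lists were seen, cluster B held 26.9% to 28.4% at E12.5 (median 28.0%) and 25.02% to 26.8% at E15.5 (median 26.0%). Cluster C held 26.8% to 27.5% (median 27.1%) and then 25.3% to 26.7% (median 25.8%). For both, no library of one stage overlapped the other stage, by a narrow margin. The lowest at E12.5 and the highest at E15.5 were 26.86% and 26.78% in B, and 26.84% and 26.70% in C. Cluster D went the other way, from 18.2% to 19.3% (median 18.7%) at E12.5 to 19.3% to 20.6% (median 20.4%) at E15.5, with a slight overlap. Cluster A held 25.5% to 28.1% (median 25.9%) and then 26.7% to 30.5% (median 27.6%), with overlap.

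The differences were -1.93 percentage points in B and -1.20 in C (exact permutation within genotypes, Benjamini-Hochberg p = 0.01 for each), 1.44 in D (p = 0.0133) and 1.68 in A (p = 0.02 by the same exact test). The call for A was lost without E12.5 WT replicate 1, E12.5 WT replicate 3 or E15.5 WT replicate 3, where it was at least 1.20. Without the Hoxb13 interval the difference of cluster B was -1.29 points (exact permutation, adjusted p = 0.02). The shares sum to a whole, so these 4 values are not independent. With same-numbered libraries taken as blocks, none of the 4 passed (sign-flip permutation, adjusted p = 0.0625 for each). The counts are sums over called intervals, and the shares move with the covered length, which differed at E15.5 by -24.3 kb in B and -32.6 kb in C (exact permutation, Benjamini-Hochberg p = 0.06 for both), by -5.37 kb in A and by -0.1 kb in D. With 1 library left out at a time the covered length differed by -33.0 to -13.9 kb in B (exact permutation, adjusted p 0.02 to 0.23), and passed without E12.5 WT replicate 1, E12.5 KO replicate 3 or E15.5 KO replicate 1. In C it differed by -43.0 to -20.6 kb (exact permutation, adjusted p 0.03 to 0.23), and passed without E12.5 WT replicate 1 or E12.5 KO replicate 3. The least negative value of both clusters was that without E12.5 WT replicate 2, the deepest library. Leaving out the 2 libraries of E12.5 that were deeper than any of E15.5 left E12.5 WT with replicate 1 alone, the shallowest of its stage, so that this does not match the stages in depth. The differences in share were then -2.19 in B, -1.18 in C and 1.47 in D (exact permutation, adjusted p = 0.0167 for each), and 1.90 in A (adjusted p = 0.075). Over both genotypes, densities of the single clusters differed between the stages by -0.21 to -0.10 on the log2 scale (exact permutation, adjusted p 0.54 to 0.62). In WT the densities of A and B differed by 0.07 each, and in KO by -0.34 and -0.49. Genotypes did not differ detectably in these shares (differences of -0.94 to 0.51 points, exact permutation, adjusted p 0.327 to 0.665).

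**Figure D5:**
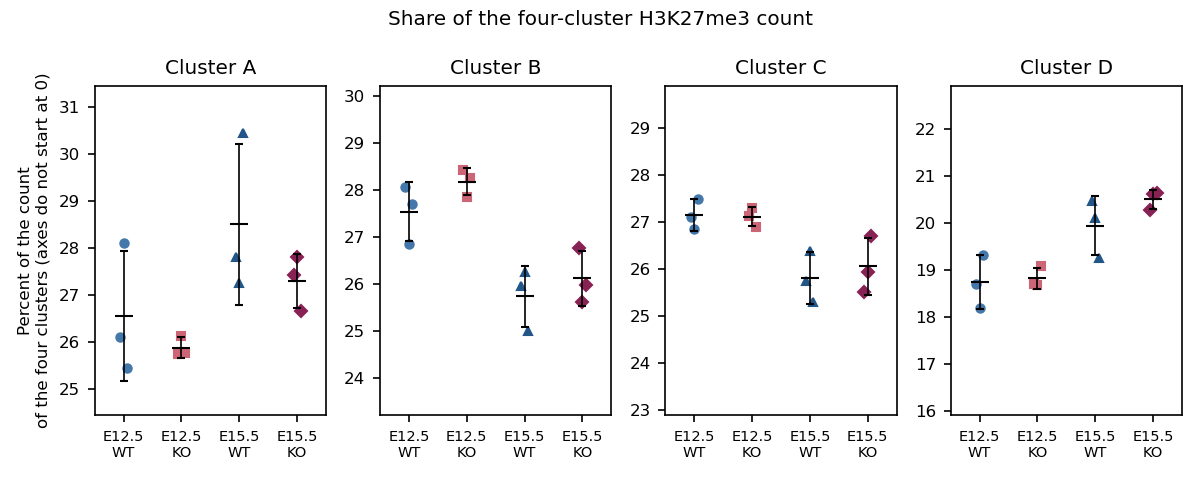
Percent of the summed count of the 4 clusters that lies in each cluster, by group; points are libraries and bars with whiskers the mean and SD (n = 3), on axes that span 7 percentage points and do not start at 0. Clusters B and C are lower in every E15.5 library than in every E12.5 library, while clusters A and D are higher on average.

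Genes that work with Hox proteins or regulate them were read from a list of 20. Of these, 13 had an interval in every library, against 12.1% of all autosomal genes. The highest densities were those of Cdx2, an activator of posterior Hox genes, at a median of 164-fold, Cyp26a1, which degrades the Hox inducer retinoic acid, at 154-fold, and Pdx1, a ParaHox gene of the pancreas, at 130-fold. The hindbrain regulator Egr2 stood at 96.7 fold. Their medians stood below the 208 to 250 fold of the 4 Hox intervals without Hoxb13. The Hoxb13 interval, at a median of 154-fold, stood below Cdx2, close to Cyp26a1 and above Pdx1 and Egr2. Of the Pbx cofactors, Pbx2 had no interval, Pbx3 had one in 6 libraries and Pbx4 in 9. The Meis cofactors differed among themselves, with Meis1 and Meis2 marked in all 12 libraries, at 37.8 and 14.2 fold, and Meis3 in 2. Of the 13 genes tested, 0 were called between KO and WT, and 2 were called lower at E15.5, where 5.94% of 2492 genes were called. Gsx2, a ventral telencephalic ParaHox gene, fell by 1.33 on the log2 scale (SE 0.22, limma adjusted p = 0.000651), and Meis2, expressed in striatal and pallial neurons, by 1.02 (SE 0.22, limma adjusted p = 0.00671). Over the same libraries, 0 of 38 Hox genes were called between the stages by this test and 1 had an unadjusted p under 0.05, the 38 again sharing values within intervals. Among the 9 MGE markers, 7 had an interval in every library, and 4 of these were called lower at E15.5: Dlx1 and Dlx2 each fell by 0.96 (limma adjusted p = 0.00449 and 0.00398), and Dlx5 and Dlx6, which share an interval, by 0.95 (limma adjusted p = 0.00141). The other 3 did not pass: Nkx2-1 differed by 0.64 (limma adjusted p = 0.131), Lhx8 by 0.44 (limma adjusted p = 0.209) and Lhx6 by -0.34 (limma adjusted p = 0.336). Their part in the stage differences of the Hox clusters was not tested.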

How the data were processed

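CUT&Tag of H3K27me3 was analysed in 12 MGE libraries, 3 per genotype and stage. The authors deposited an interval list per library, each interval with a whole-number count and a score; how either was set is not given in the sources used here. The submitters' processing notes name cutadapt, Bowtie2, SAMtools, Picard, deepTools and SICER, with builds GRCm38 and mm10. In all lists intervals sat on a 200 bp grid with gaps of at least 800 bp. The deposited score of intervals of 1 window equals the negative natural log of a Poisson probability, whose mean was taken as the depth and assumed proportional to the reads.

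Intervals were assigned to listed genes, from the GRCm38.p6 RefSeq table, within 2.5 kb. Counts of merged autosomal regions called in every library compared were tested with edgeR 4.0.16 (quasi-likelihood, library sizes proportional to depth), with DESeq2 1.42.0 as an alternative. Log2 densities near genes were tested with limma 3.58.1, and single values by exact permutation within stages or genotypes, with Benjamini-Hochberg adjustment and a threshold of 0.05. Python 3.11.15 and R 4.3.3 were used. The depth-scaled edgeR fits, other than that of the difference between genotype effects, and the limma test between genotypes were checked on simulated data. Those data held planted changes in both directions, without a shift of the median over all regions. TMM factors, DESeq2 and the permutation tests were not checked in this way.

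Members, lists and tests were chosen with earlier results of these data known. Named were the outer genes of each cluster, those with the highest or lowest coverage or density, genes at recurring breaks, the regions that hold them, and the lists of neighbours, partners and regulators, microRNAs and markers. Alternatives left out each library in turn and changed the scaling, filters, chromosomes, extension and replicate block. Measures called added were chosen after seeing the data. Single values of some genes of these lists are not reported here.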

Additional observations from a re-analysis of the deposited data

How the results depend on the processing

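Breaks per cluster and the count of single genes called between the genotypes, 0 of 38, kept their direction and side of the threshold in all alternatives run, and so did the excess of cluster A over B, C and D. The density differences between genotypes over both stages, and between stages over both genotypes, were -0.21 to 0.04 on the log2 scale. Some changed sign with the scaling. For KO against WT, clusters A and D had 0.10 and 0.11 when scaled by the total count and 0.20 and 0.21 when scaled by the median density of shared regions. For E15.5 against E12.5, A, C and D had 0.063, 0.10 and 0.026 by total count, and A and C had 0.022 and 0.061 by median density. The difference of C from D was -0.070 per kb of the whole span and no longer passed. In the merged regions the genotype differences of the shares of A and C were 0.092 and -0.23 points.

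The count of Hox regions called between the stages was 0 with TMM factors, 0 with DESeq2 and 5 with the replicate block, against 3. Over both stages the KO changes with TMM and DESeq2 were 0.23 and 0.25 for Hoxb13, 0.21 and 0.23 for Hoxb9 to Hoxb1, 0.20 and 0.22 for Hoxc13 to Hoxc4, 0.21 and 0.23 for Hoxd13 to Hoxd1 and 0.21 and 0.23 for Hoxa2 to Hoxa13. Between the stages Hoxd13 to Hoxd1 had 0.012 and 0.068, and Hoxa2 to Hoxa13 had 0.0057 and 0.061. Depth-scaled counts of these regions scaled by total count gave 0.019 and 0.019. The cause of these changes was not tested. With E12.5 libraries no deeper than the deepest of E15.5, a setting that leaves 1 library of E12.5 WT, the share of A differed by 1.90 and the Hoxb13 border by -4.2 kb.

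Same-numbered libraries had correlations of 0.22, 0.03 and 0.11 at E12.5 and -0.25, -0.09 and -0.14 at E15.5 in their deviations. With 3 libraries per group, these values cannot show whether the numbers pair the samples. With the replicate block the share differences of A, B, C and D were 1.68, -1.93, -1.20 and 1.44, with an adjusted exact permutation p of 0.0625 each.

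Leaving out 1 library at a time moved the genotype density differences between -0.091 and 0.086 in A, -0.087 and 0.15 in B, -0.070 and 0.18 in C and -0.077 and 0.061 in D. The stage density difference of C moved between -0.20 and 0.049. Covered length between the stages moved between -14.1 and 1.55 kb in A, -33.0 and -13.9 kb in B, -43.0 and -20.6 kb in C and -2.12 and 1.38 kb in D. The difference of C from D moved between -0.094 and -0.051, the stage share of A between 1.20 and 2.07 and the genotype share of C between -0.057 and 0.25. Hox regions called moved between 0 and 3 for the difference of the genotype effects and between 3 and 5 between the stages. KO changes at E12.5 moved between -0.072 and 0.20 for Hoxb13, -0.017 and 0.31 for Hoxb9 to Hoxb1, -0.075 and 0.23 for Hoxc13 to Hoxc4, -0.040 and 0.25 for Hoxd13 to Hoxd1 and -0.038 and 0.30 for Hoxa2 to Hoxa13. Over both stages they moved between -0.11 and 0.021, -0.13 and 0.022, -0.14 and 0.00031, -0.12 and 0.016, and -0.13 and 0.023 in the same order.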
